A study of Mus musculus with 6 samples.

Results

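Neurotrophins, ligands of the glial cell line-derived neurotrophic factor (GDNF) family and their receptors were examined in the mesenchyme of the mouse incisor. The genes were taken by their symbols. Of 9 genes named, 8 were among the 23718 genes of the deposited table: the ligands Bdnf and Ntf3, the neurotrophin receptors Ntrk2, Ntrk3 and Ngfr, and the GDNF family receptors Ret, Gfra1 and Gfra2. Gdnf itself was not listed, so its expression was not analysed here.

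A pair of growth factor families meet in this set of genes. Neurotrophins bind tyrosine kinase receptors of the TRK family with some selectivity, brain-derived neurotrophic factor (Bdnf) to TRKB (Ntrk2) and neurotrophin-3 (Ntf3) to TRKC (Ntrk3), and all of them bind the p75 receptor (Ngfr). GDNF family ligands bind an anchored co-receptor, GDNF to GFRA1 and neurturin (Nrtn) to GFRA2, and the complex activates the RET kinase. Both families are known for guiding and sustaining the nerves that enter the tooth pulp, and Ngfr also marks neural crest and dental mesenchymal cells.

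The samples were RNA of 2 regions cut by laser from incisor sections of mice aged 1 month. The mesenchymal stem cell (MSC) group was the region of Gli1+ cells of Gli1-CreER;tdT mice, and the transit amplifying cell (TAC) group the region of Axin2+ cells of Axin2-CreER;tdT mice, with 3 samples each. In both, a tamoxifen-inducible Cre under the named gene turns on the red reporter tdTomato, and tamoxifen had been given 1 day before. The labels give the strain C57BL/6 and the methods a mixed background. The groups therefore differ in driver line as well as region, and a captured region can hold cells of several types. The methods give 3 mice a group without tying a sample to a mouse, so p-values measure the spread between these samples.

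Libraries held between 20203159 and 108156380 estimated reads. Replicate 3 of each group stood apart from replicates 1 and 2: mitochondrial ribosomal RNA took 8.28% to 9.07% of reads in replicates 1 and 2 against 0.112% and 0.236% in replicate 3, and 6.65% to 8.13% of genes had no read against 28.1% and 42.98%. Results are therefore also given within replicates 1 and 2 and within replicate 3. The driver genes overlapped between the groups and did not pass the test. Gli1 differed between TAC and MSC by -0.54 on the log2 scale (limma adjusted p = 0.718), split as -0.77 (replicates 1 and 2) and -0.09 (replicate 3). Axin2 differed by 0.60 (adjusted p = 0.758), split as 0.18 and 1.43. All 8 dental mesenchyme markers examined were read in every library, except Barx1, which had no read in MSC replicate 3, and they summed to 654 to 795 in MSC and 511 to 575 in TAC. In limma without a block, 4 of these 8 markers had an unadjusted p under 0.05, against 11.9% of all genes tested. Pax9, Lhx8 and Dlx1 were lower in TAC, at -1.45, -1.63 and -0.97 on the log2 scale, while Msx2 was raised there, at 1.49. The groups did not overlap for 5 of the 8. In that fit 0 of the 8 passed an adjusted p of 0.05. With the replicate block Pax9 alone passed it (adjusted p = 0.0442).

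Of the 8 genes, 4 were higher in MSC, 1 was higher in TAC and 3 overlapped, in terms of the libraries' values. Ntf3, Ntrk2, Ntrk3 and Gfra2 were higher in each MSC library than in any TAC library, and Gfra1 was higher in each TAC library than in any MSC library. Ngfr, Ret and Bdnf had overlapping groups. Values are normalized read numbers, in which a read is worth the same in every gene of a library, so levels are compared between libraries for each gene. They are listed in the order of replicates 1, 2 and 3. Of the 8 genes listed, 7 had the mean of at least 1 required for testing, and Bdnf did not. Ntf3 and Ntrk2 had TAC means under 1, so they met that requirement through their MSC values.

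In limma on log2(value + 1), 0 of these 7 genes passed an adjusted p-value of 0.05, a threshold that 0.422% of all genes tested passed. At an unadjusted p-value of 0.05, 5 passed, against 11.9% of all genes. Higher in MSC were 4, against 6.43% of all genes, and higher in TAC was 1, against 5.42%. The same 5 genes had groups that did not overlap, against 24.5% of all genes. The fit with the replicate number as a block called Ntrk3 alone, against 1.49% of all genes. In replicates 1 and 2 only, the same 5 genes passed the adjusted threshold, against 44.2% of all genes, where the error rests on 2 libraries a group. The difference between library sets passed for 4 of them, against 57.2% of all genes.

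**Figure D1:**
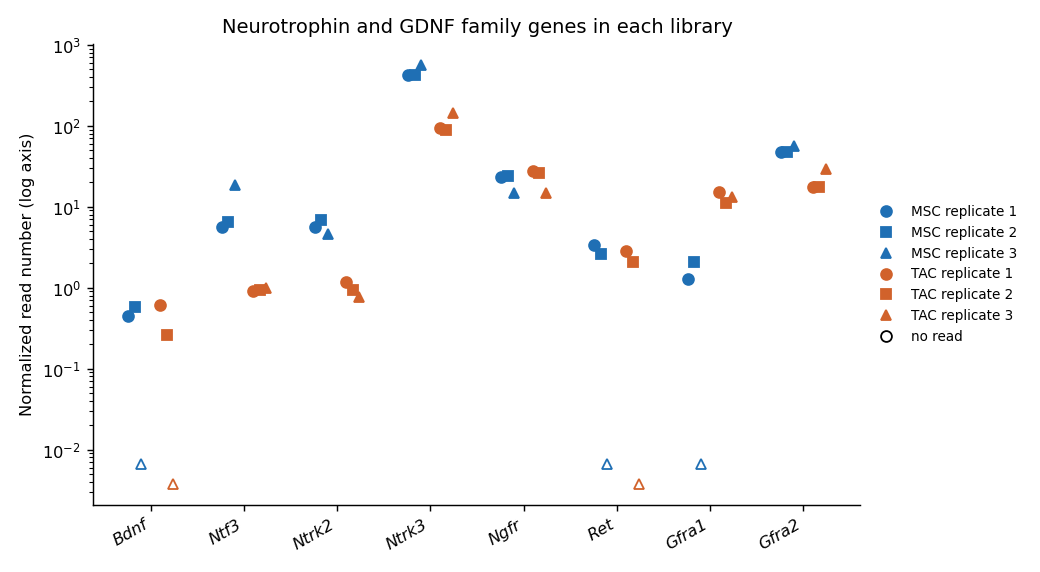
Normalized read number (log axis) of each of the 8 genes in each of the 6 libraries, MSC in blue and TAC in orange, with the replicate given by the symbol and open symbols for libraries without a read. Ntrk3 lies between 424 and 566 in MSC and between 90.1 and 144 in TAC, and Gfra1 between 11.1 and 15.2 in TAC against 2.06 or less in MSC.

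Ntrk3 encodes TRKC, the receptor of neurotrophin-3, and had the largest values of the set. It had MSC values of 424, 428 and 566 against TAC values of 93.8, 90.1 and 144. Replicate 3 was the highest library in both groups, and the lowest MSC value was well above the highest TAC value. Means (± SD, n = 3) were 473 ± 80.7 for MSC and 109 ± 30.2 for TAC, a ratio of 4.32. The log2 difference, TAC minus MSC, was -2.12 (SE 0.33, 95% interval -2.89 to -1.36, limma adjusted p = 0.0586). Replicates 1 and 2 gave -2.20, and replicate 3 gave -1.97. With the replicate block the adjusted p was 0.0270, so Ntrk3 passed there, and the range across 17 alternatives was 8.67e-09 to 0.397. It passed without MSC replicate 3, at 0.0455. Between 3757 and 85018 estimated reads stood behind each value.

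Ntrk3 lies on chromosome 7 (mm10, 78175959 to 78738012, minus strand). The locus also holds the predicted or clone-named genes Gm44607 and Gm39038 on its strand, and 4921513I08Rik and Gm9885 on the other. Whether counting used the strand is not stated, so reads of these could be included. TRKB and TRKC are also made as forms without the kinase domain, and a value per gene does not separate these.

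Ntf3 encodes neurotrophin-3, the ligand of TRKC, and lies on chromosome 6 (126101412 to 126166910, minus strand). It had MSC values of 5.70, 6.43 and 18.8, from 213, 221 and 2823 estimated reads, against TAC values of 0.920, 0.935 and 0.993, from 41, 38 and 261 reads. The TAC libraries were nearly equal, and MSC replicate 3 was well above the other MSC libraries. Means (± SD, n = 3) were 10.3 ± 7.36 for MSC and 0.949 ± 0.0389 for TAC, a ratio of 10.9. The log2 difference was -2.35 (SE 0.59, limma adjusted p = 0.179), split as -1.87 (replicates 1 and 2) and -3.31 (replicate 3). Because the TAC level was near 1, the size depended on the pseudocount, with -3.09 at 0.1 and -0.83 at 10. Thus the ligand and its receptor were both higher in the MSC libraries, in both library sets.

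Ntrk2 encodes TRKB, the receptor of Bdnf. It had MSC values of 5.65, 6.84 and 4.63 against TAC values of 1.18, 0.935 and 0.762. Unlike Ntf3, Ntrk2 was lowest in replicate 3 in both groups. Means (± SD, n = 3) were 5.70 ± 1.11 for MSC and 0.960 ± 0.211 for TAC, a ratio of 5.94. The log2 difference was -1.77 (SE 0.48, limma adjusted p = 0.200), split as -1.81 (replicates 1 and 2) and -1.67 (replicate 3). It too moved with the pseudocount, to -2.45 at 0.1 and -0.52 at 10. Estimated reads were 38 to 694 a library. Ntrk2 lies on chromosome 13 (58806569 to 59133970, plus strand) and overlaps C630044B11Rik on its strand and Gm47423, 4930415C11Rik and Gm34245 on the other.

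Bdnf, a neurotrophin known from brain and sensory neurons, had 27 reads or fewer in each library. Estimated reads were 16, 19 and 0 for MSC against 27, 10 and 0 for TAC, with values of at most 0.613. A count of 0 allows up to 3 reads, a value of 0.0266 in MSC replicate 3 and 0.0152 in TAC replicate 3. The groups overlapped, and Bdnf was not tested. Its locus on chromosome 2 (109674700 to 109727007, plus strand) has Gm45346 on the other strand.

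Ngfr encodes p75, which binds every neurotrophin, and lies on chromosome 11 (95568818 to 95587735, minus strand). It had MSC values of 23.5, 24.0 and 14.9 against TAC values of 27.7, 26.0 and 14.9. The groups overlapped, and replicate 3 was lowest in both. Means (± SD, n = 3) were 20.8 ± 5.12 for MSC and 22.9 ± 6.98 for TAC. The log2 difference was 0.11 (SE 0.37, 95% interval -0.76 to 0.99, limma adjusted p = 0.950), so differences within that interval are not told apart from none. Replicates 1 and 2 gave 0.17, and replicate 3 gave 4.5e-05. Its direction turned without MSC replicate 3 (-0.099) and without TAC replicate 1 (-0.043).

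Upstream sequence is shown for Ntf3 and Ntrk2, the neurotrophin genes whose MSC and TAC values did not overlap and for which a window was at hand. Windows are from RefSeq (GRCm38.p6, the coordinates of mm10), which gave starts for 6 of the 9 genes. Only bases before the start and outside annotated exons of the gene are printed, with CG dinucleotides in capitals.
Ntf3, before its outer start, chr6:126166911-126166994, minus strand: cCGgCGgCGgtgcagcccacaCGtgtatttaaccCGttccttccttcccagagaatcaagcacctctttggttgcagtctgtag
Ntf3, before its inner start, chr6:126164961-126165210, minus strand: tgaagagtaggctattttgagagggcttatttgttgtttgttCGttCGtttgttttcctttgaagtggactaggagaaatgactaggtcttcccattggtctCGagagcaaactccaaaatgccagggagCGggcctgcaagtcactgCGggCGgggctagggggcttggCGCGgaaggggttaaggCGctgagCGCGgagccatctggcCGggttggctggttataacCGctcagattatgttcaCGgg
Ntrk2, chr13:58806319-58806568, plus strand: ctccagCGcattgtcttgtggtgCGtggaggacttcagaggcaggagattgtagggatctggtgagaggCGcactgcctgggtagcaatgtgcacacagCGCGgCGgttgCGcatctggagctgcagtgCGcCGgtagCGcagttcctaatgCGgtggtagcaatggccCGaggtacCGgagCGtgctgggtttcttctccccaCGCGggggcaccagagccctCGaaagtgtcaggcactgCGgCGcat
The window of Ntrk2 holds 19 CG dinucleotides and the inner one of Ntf3 14, against a median of 6 over the 250 bases before the start of all 32851 promoters. Since Gli1 and Axin2 name the driver lines, the letters GACCACCCA of the GLI motif and CTTTGAT of the TCF/LEF motif were searched on both strands. Neither motif contains the other. Of all promoters, 0.225% hold the first and 3.21% the second, and 0 of the 14 windows of these genes hold either. These windows include those of Bdnf, which was not tested, and of Gdnf, which was not listed. With so few windows, 0 is not told apart from the shares over all promoters.

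**Figure D2:**
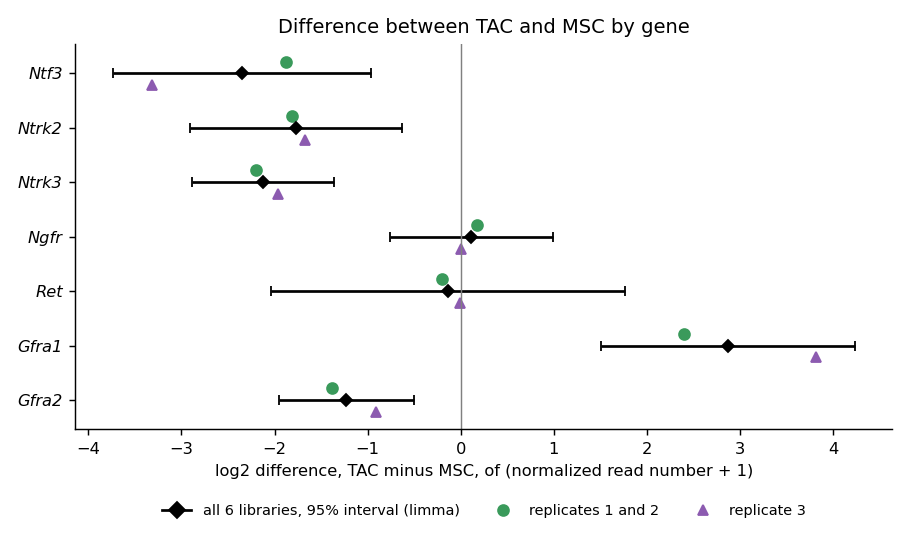
Difference between TAC and MSC in log2(normalized read number + 1) for the 7 genes tested, with diamonds and 95% intervals from limma over all 6 libraries, circles for replicates 1 and 2 and triangles for replicate 3. Gfra1 lies at 2.88 and Ntf3, Ntrk3, Ntrk2 and Gfra2 between -2.35 and -1.23, with both library sets on the same side of 0 for each.

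Gfra1 and Gfra2 differed in opposite directions, neither past the adjusted threshold. Gfra1, the co-receptor of GDNF, had MSC values of 1.28, 2.06 and 0.00666, from 47, 70 and 0 estimated reads, against TAC values of 15.2, 11.1 and 13.2, from 692, 460 and 3487 reads. The TAC libraries were close to each other, and MSC replicate 3, with no read, was farthest from them. Means (± SD, n = 3) were 1.11 ± 1.04 for MSC and 13.2 ± 2.06 for TAC, a ratio of 11.8. The log2 difference was 2.88 (SE 0.58, 95% interval 1.51 to 4.24, limma adjusted p = 0.115). Replicates 1 and 2 gave 2.40, and replicate 3 gave 3.82, and it was 4.27 with a pseudocount of 0.1 and 1.06 with 10. Without MSC replicate 3 the difference was 2.41 and passed, at a limma adjusted p of 0.0409, where 292 of all genes passed against 65 with all samples. Leaving out any other sample gave adjusted p-values of 0.193 to 0.545. Gfra1 lies on chromosome 19 (58235604 to 58455909, minus strand), with Gm16277 on the other strand.

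Gfra2, the co-receptor of neurturin, had MSC values of 47.5, 47.1 and 56.2 against TAC values of 17.3, 17.6 and 29.4. Replicate 3 was highest in both groups, as for Ntrk3. Means (± SD, n = 3) were 50.2 ± 5.15 for MSC and 21.5 ± 6.89 for TAC, a ratio of 2.34. The log2 difference was -1.23 (SE 0.31, 95% interval -1.95 to -0.50, limma adjusted p = 0.179), split as -1.39 (replicates 1 and 2) and -0.91 (replicate 3). Between 734 and 8441 estimated reads stood behind each value. Gfra2 lies on chromosome 14 (70890120 to 70979838, plus strand) and overlaps no other annotated gene.

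Ret, the kinase that both co-receptors signal through, was low and did not separate the groups. It had MSC values of 3.38, 2.61 and 0.00666 against TAC values of 2.87, 2.09 and 0.00379, so replicate 3 had no read in either group. The other libraries had 86 to 130 estimated reads. The log2 difference was -0.14 (SE 0.81, 95% interval -2.04 to 1.76, limma adjusted p = 0.976). It was -0.20 in replicates 1 and 2, and its direction turned without MSC replicate 1 (0.26), without MSC replicate 2 (0.12) and without TAC replicate 3 (0.46). Ret lies on chromosome 6 (118151745 to 118197718, minus strand).

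Levels of different genes were compared after division by the summed length of annotated exons. In MSC, Ntrk3 (15.7 per kb) and Gfra2 (14.2 per kb) came first, followed by Ntf3 and Ngfr (both 6.03 per kb). Ret and Ntrk2 (both 0.296 per kb), Gfra1 (0.203 per kb) and Bdnf (0.0557 per kb) came last. The libraries of Ntrk3 and Gfra2 overlapped in MSC, at 14.1 to 18.8 and 13.3 to 15.9 per kb, as did those of Ntf3 and Ngfr. In TAC the order began with Ngfr (6.63 per kb), Gfra2 (6.06 per kb), Ntrk3 (3.62 per kb) and Gfra1 (2.40 per kb). There Ngfr and Gfra2 overlapped, and so did Ngfr and Ntrk3 at 4.31 to 8.03 and 2.99 to 4.78 per kb. Ntf3 (0.555 per kb), Ret (0.244 per kb), Ntrk2 (0.0498 per kb) and Bdnf (0.0472 per kb) followed. The TAC libraries of Ret, Ntrk2 and Bdnf overlapped, and Ret and Bdnf had no read in TAC replicate 3, so the order of these genes in TAC is not set. The MSC libraries of Ret, Ntrk2 and Gfra1 overlapped, and Ret and Gfra1 had no read in MSC replicate 3, so their order there is not set. In TAC each library of Gfra1 was above every library of Ntf3. With the longest transcript as the length, Ntrk3 was 24.0 per kb in MSC, above every library of Gfra2. Ntrk2 was then 0.653 per kb in MSC, above the mean of Ret at 0.366 per kb but with overlapping libraries, and 0.110 per kb in TAC.

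**Figure D3:**
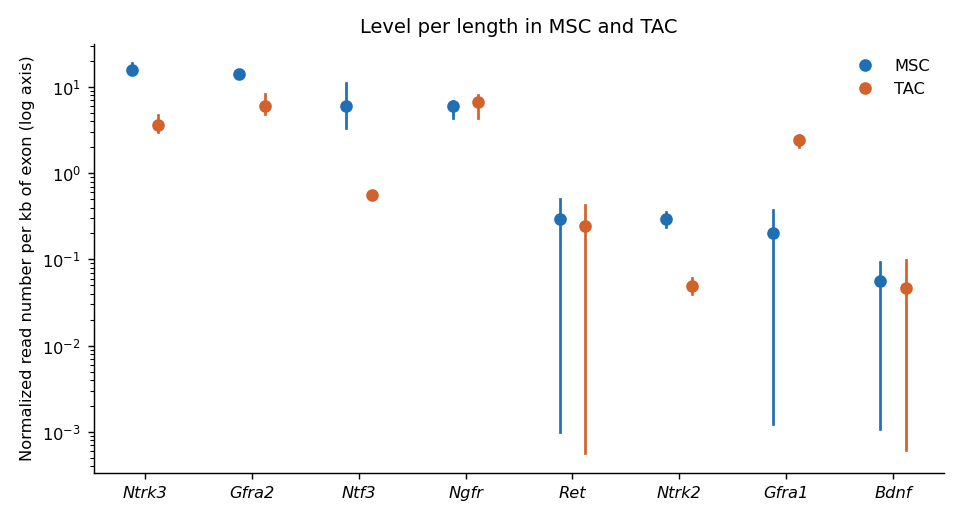
Normalized read number per kb of exon (log axis) in MSC (blue) and TAC (orange), with points for the mean of 3 libraries and lines from the lowest to the highest library. Ntrk3 and Gfra2 lead in MSC at 15.7 and 14.2 per kb, and Ngfr leads in TAC at 6.63 per kb, while lines reaching far down belong to genes without a read in replicate 3.

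Further genes of both pathways were taken from a list of 47 symbols, of which 43 were listed and 34 tested. In limma 0 passed the adjusted threshold and 8 passed the unadjusted one, 4 higher in MSC and 4 higher in TAC. The last counts are 23.5% of the list in all and 11.8% in each direction, against 11.9%, 6.43% and 5.42% of all genes. The median log2 difference was -0.18, against 0.03 over all genes tested, and 12 (35.3%) had groups that did not overlap, against 24.5% of all genes. With the replicate block 1 gene passed the adjusted threshold, Ncam1.

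Among receptors that act with the neurotrophins, Sorcs2 and Sort1 were higher in each MSC library than in any TAC library. Sorcs2, a sortilin-related receptor that can act with p75, had MSC values of 4.96, 3.88 and 18.6 against TAC values of 0.591, 0.671 and 0.0152, a log2 difference of -2.57 (SE 0.68, adjusted p = 0.188). Sort1, a sorting receptor for proneurotrophins, had MSC values of 36.2, 36.5 and 35.0 against TAC values of 28.3, 28.9 and 21.3, a log2 difference of -0.45 (adjusted p = 0.571). Nradd and Lingo1 differed by 0.12 and 0.39, with overlapping groups. Ntf5, Sorcs1, Sorcs3 and Rtn4r were under the mean required for testing.

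Among GDNF family ligands and receptors, 4 of 7 listed were tested and 1 passed the unadjusted threshold, which is 25% against 11.9% of all genes, and that gene met the requirement for testing through its MSC values. Nrtn, the ligand of GFRA2, had MSC values of 3.22, 3.27 and 3.95 against TAC values of 0.394, 0.695 and 0.00379, with no read in TAC replicate 3. Its log2 difference was -1.74 (SE 0.50, limma adjusted p = 0.219), split as -1.47 (replicates 1 and 2) and -2.30 (replicate 3). Nrtn and Sorcs2 had TAC means under 1, as had Ntf3 and Ntrk2, so Sorcs2 too met that requirement through its MSC values. Ncam1, an adhesion molecule that can also bind GDNF, had MSC values of 275, 265 and 64.1 against TAC values of 93.3, 89.8 and 23.6. Each TAC value lay below the MSC value of the same number, but replicate 3 was far lower in both groups and the groups overlapped. Its log2 difference was -1.50 (SE 0.73, adjusted p = 0.483), and the replicate block gave an adjusted p of 0.0359. Sdc3, a heparan sulfate proteoglycan that binds GDNF, differed by 0.87 (SE 0.45, adjusted p = 0.519) and Gfra4 by 0.02. Artn, Pspn and Gfra3 were under the mean required for testing.

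Of 5 genes known to be raised by RET signaling, 3 passed the unadjusted threshold, all higher in TAC. Etv4 and Etv5 are ETS transcription factors and Spry1 is an inhibitor of receptor tyrosine kinase signaling, and all 3 are also raised by fibroblast growth factors. Etv4 had MSC values of 7.22, 6.78 and 2.74 against TAC values of 37.2, 35.1 and 73.2, a log2 difference of 2.91 (SE 0.47, limma adjusted p = 0.0709). Etv5 had MSC values of 8.42, 11.1 and 4.41 against TAC values of 39.3, 36.8 and 54.1, a log2 difference of 2.36 (SE 0.40, adjusted p = 0.0767). Spry1 had MSC values of 8.98, 11.6 and 0.0133 against TAC values of 43.0, 42.7 and 48.5, a log2 difference of 3.18 (SE 0.92, adjusted p = 0.228). These 3 genes were, like Gfra1, higher in each TAC library than in any MSC library, while Ret was not.

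Of 16 adaptors tested, which link these receptors to the cell interior, 2 passed the unadjusted threshold, which is 12.5% and near the 11.9% of all genes. Gab1, a docking protein, was lower in TAC at -1.03 (SE 0.34, limma adjusted p = 0.302), and Bex3, which binds the death domain of p75, was higher at 0.76 (SE 0.26, adjusted p = 0.303). Of 4 genes tested for cutting proneurotrophins 0 passed at either threshold in the fit without the block. The nearest, named after its value was seen, was Pcsk6, a proprotein convertase, at 1.91 (SE 0.81, limma unadjusted p = 0.0502). With the replicate block its unadjusted p was 0.0266, past that threshold, and its adjusted p was 0.186.

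**Figure D4:**
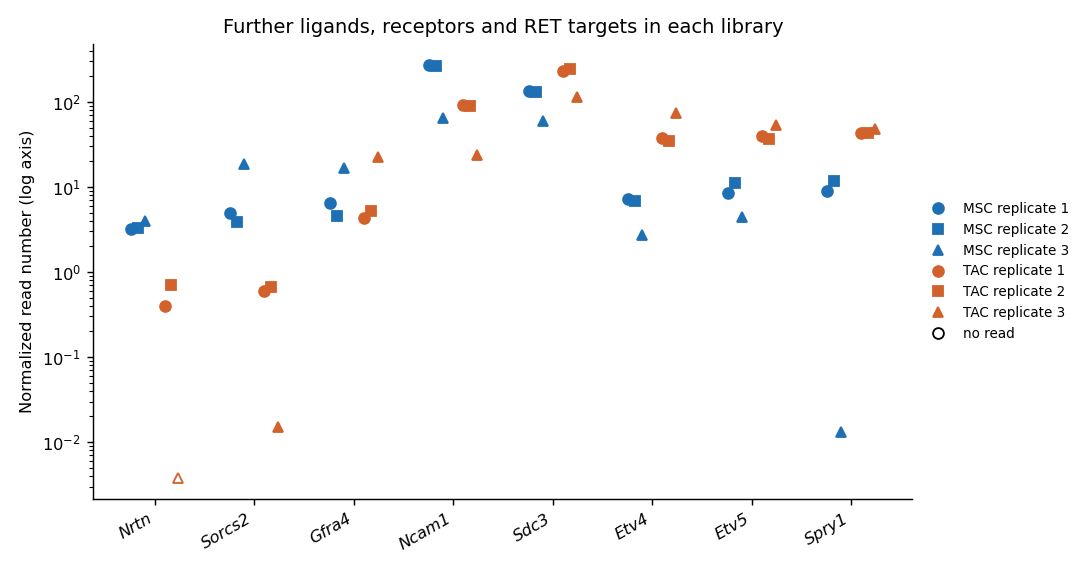
Normalized read number (log axis) of 8 further genes in each of the 6 libraries, MSC in blue and TAC in orange, with open symbols for libraries without a read. Nrtn and Sorcs2 are higher in each MSC library, Etv4, Etv5 and Spry1 in each TAC library, and Gfra4, Ncam1 and Sdc3 overlap.

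Markers of other cell types differed between the groups for some lists and not for others. Their counts stand against 0.422% of all genes past the adjusted threshold and 11.9% past the unadjusted one. In bulk samples fewer cells of a type and less RNA per cell cannot be told apart. The summed level of 7 smooth muscle and pericyte markers was 832 to 1479 in the MSC libraries and 88.6 to 127 in TAC, with 5 of 7 past the adjusted threshold, and all 7 were read in every library. With the replicate block Acta2 no longer passed (adjusted p = 0.0701) and Cspg4 did (0.0442). The 6 endothelial markers summed to 147 to 230 in MSC and 69.7 to 87.5 in TAC, with 3 of 6 past the unadjusted threshold, and Cldn5 passed the adjusted one with the block (adjusted p = 0.0491). The 9 Schwann cell markers summed to 27.0 to 52.9 in MSC and 9.20 to 19.3 in TAC, with 2 of the 6 tested past the unadjusted threshold, Sox10 and Cdh19, which had TAC means under 1 and met the requirement for testing through their MSC values. These lists were higher in MSC as Ntf3, Ntrk2, Ntrk3 and Gfra2 were, and their part in those differences was not tested. S100b and Ncmap had no read in MSC replicate 3, where Sox10 was 3.49, against at most 0.504 in TAC.

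Sensory neuron markers were low. The 9 listed summed to 4.30 to 18.2 in MSC and 22.05 to 25.5 in TAC, and 6 of them had no read in MSC replicate 3. The TAC sum was mostly Tubb3, at 14.1 to 18.6, which was higher in TAC, with a log2 difference of 2.68 (SE 0.68, limma adjusted p = 0.180). The other 3 tested did not pass the unadjusted threshold and went both ways. Uchl1 differed by -1.10, Scn9a by -0.53 and Isl1, which had no read in MSC replicate 3, by 0.68. The list's median was 0.08, against 0.03 over all genes. The neurofilament gene Nefl was at most 0.0758. Snap25 and Scn10a had 605 and 286 reads in TAC replicate 3 and at most 4 in any other library. The 6 epithelial markers summed to 112 to 2530 in MSC and 914 to 2253 in TAC, mostly the enamel gene Amelx, with 1 past the unadjusted threshold, and 3 of them had no read in MSC replicate 3. Apart from Amelx, the keratin genes Krt14 and Krt5 and the adhesion genes Epcam and Cdh1 were each higher in every TAC library than in any MSC library, as Gfra1 was. These are 4 of 6 (66.7%), against 24.5% of all genes, and Cdh1 was at most 4.06 in MSC and 6.31 to 14.3 in TAC. Epcam, the marker past the threshold, had an MSC mean under 1 and met the requirement for testing through its TAC values. The 5 odontoblast markers summed to 2038 to 14591 in MSC and 11282 to 15684 in TAC, with 0 past the unadjusted threshold, and Dmp1 and Ibsp had no read in MSC replicate 3. The 6 macrophage markers summed to 58.8 to 117 in MSC and 34.2 to 92.9 in TAC, with 1 past it. The part of these lists in the higher Gfra1 of TAC was not tested.

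For each gene with at least 10 reads in all libraries of a group, the genes with the most similar profile were found by the Pearson correlation of log2 values over the 6 samples, among 7881 or 7882 others. With so few points, 135 to 388 genes had r above 0.95, so the names are a description only. Nearest to Ntrk3 were Ccnd3 (r = 0.999), Gprasp1 and Prr33 (both 0.998). Nearest to Ntf3 were Tsc22d1 and the endothelial gene Pecam1 (both 0.998) and Pex6 (0.997). Nearest to Ntrk2 were Cdc42bpg (0.997), Klf7 and Olfr1372-ps1 (both 0.995). Nearest to Gfra2 were Mib2 and Npc1 (both 0.997) and Selenop (0.995). Nearest to Gfra1 were Nol9 (0.997), Scara3 (0.996) and Sp6 (0.995), and nearest to Ngfr were Fmn1, Atrnl1 and Hist1h1e (all 0.997).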

How the data were processed

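RNA sequencing values of 6 samples, 3 MSC and 3 TAC, were taken from the deposited table. The authors trimmed single-end reads and aligned them to mm10 with TopHat (2.0.8), and their methods name RPKM. The deposited values are treated as a signal: in each library short and long genes without a read had one common lowest value, which fits reads plus 1 over a size factor, with no division by length. Estimated reads are the value over that lowest value, minus 1. Of values above 0 and under 20 reads, 60.2% to 72.2% per library were whole within 0.01, so no count model was used. The submitters' processing notes also list CASAVA (1.8.2) and Partek, with no role. Which tool counted reads, the annotation and the use of strand are not given in the sources used here.

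The test had been planned for length-normalized values and was kept, on a log scale. limma 3.58.1 (R 4.3.3) with a variance trend was fitted to log2(value + 1) of 15391 genes (mean 1 or more), two-sided, as TAC minus MSC, with Benjamini-Hochberg adjustment over all of them. The fit was also run on simulated reads that had no shift of replicate 3, so that run does not bear on the spread between the real libraries. Each group's samples were grouped by title. The replicate numbers were checked as pairs: deviations from group means correlated at 0.477, 0.465 and 0.517 for same-numbered samples, and MSC replicate 2 with TAC replicate 1 gave 0.48. MSC replicate 1 with TAC replicate 2 gave 0.462, and pairs of replicate 3 with replicate 1 or 2 gave -0.5 to -0.485. The check therefore does not tell pairs by number from the split of replicate 3 from the others. Each same-numbered pair was over 0.1, so block values are given where they change a call at the adjusted threshold. Lengths and overlapping genes are from GENCODE M21 (mm10), and 94.6% of symbols were found there. Gene coordinates are those of GENCODE, and symbols were used as given.

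The genes and lists were chosen with earlier results of these data known. Every listed gene was named, as were list ligands and receptors in the table, list genes past the unadjusted threshold, and the 3 genes nearest each profile, except that some list genes are not reported here. Alternatives were other pseudocounts, filters, scalings and variance models, the replicate block, a library set term, replicates 1 and 2 only, and leaving out each sample. Limits on a count of 0 cover counting error only, and intervals of differences the spread between samples.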

Additional observations from a re-analysis of the deposited data

Results flagged for a closer look

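The interaction of group with library set (replicate 3 against replicates 1 and 2) passed an adjusted p-value of 0.05 in limma for 4 of the 7 genes tested. It passed for 57.2% of all genes tested, so the count says nothing particular of these genes. Replicate 3 is 1 library a group and the error rests on replicates 1 and 2 alone, so the values below describe these libraries. Gfra1 differed by a further 1.42 (SE 0.44) on the log2 scale in replicate 3 and Ntf3 by a further -1.44 (SE 0.38), so both differences were larger there. Ntrk3 differed by 0.235 (SE 0.070) and Gfra2 by 0.474 (SE 0.15), so both differences were smaller there. Adjusted p-values were 0.0246, 0.0115, 0.0205 and 0.0266 for Gfra1, Ntf3, Ntrk3 and Gfra2. None of the 4 turned its direction.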

How the results depend on the processing

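Of the 7 genes tested, Ntf3, Ntrk2, Ntrk3, Gfra1 and Gfra2 kept their direction in every alternative run. With single samples left out, Ngfr ran from -0.0991 to 0.384 and turned when MSC replicate 3 (-0.0991) or TAC replicate 1 (-0.0427) was dropped. Ret ran from -0.797 to 0.458 and turned when MSC replicate 1 (0.264), its replicate 2 (0.123) or TAC replicate 3 (0.458) was dropped. The adjusted threshold was passed by Ntrk3 in 5 of 17 alternatives, Gfra1 in 4 of 16, and Ntf3, Ntrk2 and Gfra2 in 2 each. None of the 7 passed in the report's fit, and 1 passed with a mean of at least 10 (Ntrk3), with quantile normalization (Gfra1) and with the replicate block (Ntrk3). Those passing numbered 5 with library set as a batch term and 5 in replicates 1 and 2 only. Leaving out single samples gave 0 to 2, with 2 only without MSC replicate 3. At the unadjusted threshold 5 passed, and 2 with a mean of at least 10, where only 3 were tested.

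Of the pathway list 0 passed, against 2 with quantile normalization, 1 with the replicate block, 9 with the batch term, 19 in replicates 1 and 2 only and 0 to 3 with single samples left out. At the unadjusted threshold 8 passed, against 5 with a mean of at least 10, 13 with the replicate block, 15 with the batch term and 21 in replicates 1 and 2.

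Over all genes 65 passed, against 38 with a pseudocount of 0.1, 114 with quantile normalization, 29 without the variance trend, 229 with the replicate block, 1814 with the batch term and 6796 in replicates 1 and 2. With single samples left out the count was 0 to 292: 0 without replicate 1 or 2 of either group, 36 without TAC replicate 3 and 292 without MSC replicate 3. At the unadjusted threshold it was 1824, against 1192, 3136, 4554 and 7983 for a mean of at least 10, the block, the batch term and replicates 1 and 2, and 1028 to 3108 with single samples left out.

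The interaction with library set was past the threshold for 4 genes, against 2 with a mean of at least 10, 2 with median-ratio scaling, 1 with quantile normalization and 2 without the variance trend, alternatives chosen after seeing the data, as was the longest transcript (Ntrk3 at 24.0 per kb in MSC). The cause of these shifts was not tested. Among the genes tested here and the pathway list, the block changed no call at the adjusted threshold other than those of Ntrk3 and Ncam1. Bdnf and Ret rest on 0 reads in replicate 3 and at most 27 and 130 reads elsewhere.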

Other observations

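Ret had no read in either library of replicate 3, although it had 86 or more in each library of replicates 1 and 2, which held fewer reads in all. The adaptor Dok6 did the same, with MSC values of 30.4 and 30.2 against TAC values of 13.5 and 14.6 in the first 2 replicates, from at least 607 reads. Of 10801 protein-coding genes with at least 80 reads in each library of replicates 1 and 2, 105 (0.972%) had no read in both libraries of replicate 3, a rule chosen after the values of Ret were seen. Over all gene types it was 478 of 11808 (4.05%). Why these genes had no read was not tested.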
